A study of Danio rerio with 19 samples.

Results

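RNA from zebrafish blastula embryos at the 1k-cell stage was compared with RNA from sperm, in 1 sequencing library each. The 1k-cell library is called blastula below. These 2 of the 19 samples were chosen by their titles, and the RNA tables were joined on gene name. Of 14244 gene names, 12453 had a normalized value of at least 10 in one or both libraries and were compared. The other RNA libraries, from egg and from the germ ring stage at the onset of gastrulation, 1 library each, serve below only to place the values. The hydroxymethylcytosine pull-down, bisulfite and TAB samples were not used here. The labels give no strain, treatment, age, number of animals or genotype for either library. The protocol text describes Trizol extraction from whole embryos and poly-T selection of the RNA for every sample, and gives no separate way of collecting sperm.

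The blastula is a ball of rapidly dividing cells that runs almost wholly on messenger RNA laid down by the mother. At about this stage the embryo starts to transcribe its own genome, and maternal factors such as Nanog, Pou5f3 and SoxB1 proteins open the first zygotic genes. A sperm cell carries little RNA, mostly left over from spermatogenesis in the testis, where germ cells pass through meiosis and then build a motile tail. In zebrafish the paternal DNA methylation pattern is the one that the blastula resembles, so sperm and blastula are often set side by side in studies of early chromatin.

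The deposited values are read counts per gene, scaled by the authors and called normalized reads below. They are not divided by gene length, so a level is compared only with the same gene in another library. The sperm library held 21138688 recovered reads and the blastula library 24256918, and 1 read was worth 0.993 and 0.951 normalized reads. Neither group has a replicate. No test was possible, and no difference below is set against the spread between animals or clutches. Intervals in brackets are exact (Clopper-Pearson) 95% intervals of the ratio of reads, and they cover counting error only. Against a library with 0 reads, a fold is a bound computed at 3 reads and written as "at least". Log2 ratios are of the normalized value plus 1. Where a pair of values stands without a library name, the first is sperm and the second blastula, and a run of 4 values gives sperm, egg, blastula and germ ring.

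The sperm library was first checked against its label. All 58 measured genes of the axoneme and sperm tail reached 10 normalized reads in it, and so did all 33 measured oocyte and egg genes. But all except 134 of the 12453 genes compared reached 10 in sperm, so neither count says much about the label. By level, the sperm library also held genes of other cells. The egg coat protein gene zp3b was at 58594 normalized reads against 1137 in the egg library. Markers of other cell types were read as whole lists. Each sum runs over all members found, with those under 10 in both libraries included. The number of markers given is that of the measured members. The 25 red blood cell markers summed to 95734 in sperm and 6994 in blastula, the 24 leukocyte markers to 51737 and 11297, and the 16 exocrine pancreas markers to 34880 and 18.1. Among the red blood cell markers the globin entries ba1 and ba2 held the same values in every library, and with these counted once the sperm sum was 72446. For 29 testis somatic markers the sums were 26490 and 12211, for 27 epidermis markers 24081 and 22866, and for 25 liver markers 8163 and 156. The 15 ovarian follicle markers summed to 5761 and 5716, and the 24 skeletal muscle markers to 5008 and 243.

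In 4 of these lists a single member made up most of the blastula sum: the cathepsin gene ctssb.1 at 10836 among leukocyte markers, slc25a37 at 4527 among red blood cell markers, cdh1 at 20074 among epidermis markers, and the steroid enzyme gene cyp17a1 at 5533 among follicle markers.

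Most of these markers were lower in blastula. For reference, a 2-fold difference was passed upward in blastula by 25.6% of the genes compared and downward by 40.0%. All 16 pancreas and all 25 liver markers were lower, as were 23 of 24 leukocyte, 23 of 24 muscle, 20 of 25 red blood cell, 23 of 29 testis somatic, 13 of 15 follicle and 20 of 27 epidermis markers. These counts lean on the floor of 10 in either library. Over all genes, 2330 reached 10 in sperm alone, and 2299 of these were lower. No measured pancreas marker exceeded 7.61 in blastula (ctrl), so all of them entered through sperm and their direction was all but fixed. The globin gene hbaa1 was at 34337 normalized reads in sperm and 1.90 in blastula, a ratio of 18058 (4999 to 149114). The chymotrypsinogen gene ctrb1 was at 4859 and 0, at least 1704-fold lower. Lysozyme, lyz, was at 6934 and 0.951, and the Leydig cell hormone insl3 at 9689 and 1.90. At 0 in the blastula library were star, which brings cholesterol into steroid-making cells (982 in sperm), the Sertoli cell hormone amh (77.5), the lipoprotein gene apoa2 (1045) and the liver fatty acid carrier fabp10a (773). Lower values in blastula are therefore measured against a mixed library, and the part of these other cells in each result below was not tested. In bulk RNA, fewer cells of a type and less RNA per cell cannot be told apart.

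The 1k-cell library held the regulators of its stage. Nanog (listed as zgc:193933) had the highest deposited value of that library, at 77955 normalized reads, and sox19b, the main maternal SoxB1 gene, stood at 48352. Of 61 genes known as the first zygotic wave, 34 reached 10 in blastula and all 61 at germ ring. Of all 14244 names, 10123 reached 10 in blastula and 10460 at germ ring. The blastula share of the first-wave genes was thus below that of all names, and their count does not mark the stage.

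In blastula 3186 of the 12453 genes stood 2-fold or more above sperm, 4979 stood 2-fold or more below it, and 4288 lay between. The median log2 ratio was -0.29, with the middle of the distribution between -2.51 and 1.03. The larger differences lay on the low side. At least 16-fold lower were 1788 genes (14.4%), and at least 16-fold higher were 81. Rescaling by the median of ratios moved the blastula values up by 0.14 on the log2 scale and gave 3533 higher and 4786 lower genes. Since 1 is added to each value, ratios of genes near 0 in blastula moved less or not at all. With a floor of 10 in both libraries, which drops every gene near 0 in one of them, 2680 genes were lower and the median was 0.23. Both libraries held 9989 genes at 10 or more, while 2330 genes reached it only in sperm and 134 only in blastula. Among the 134, the highest blastula value was 490. The higher genes had a median of 587 normalized reads in sperm and 2147 in blastula. The lower genes had 215 and 14.3.

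**Figure D1:**
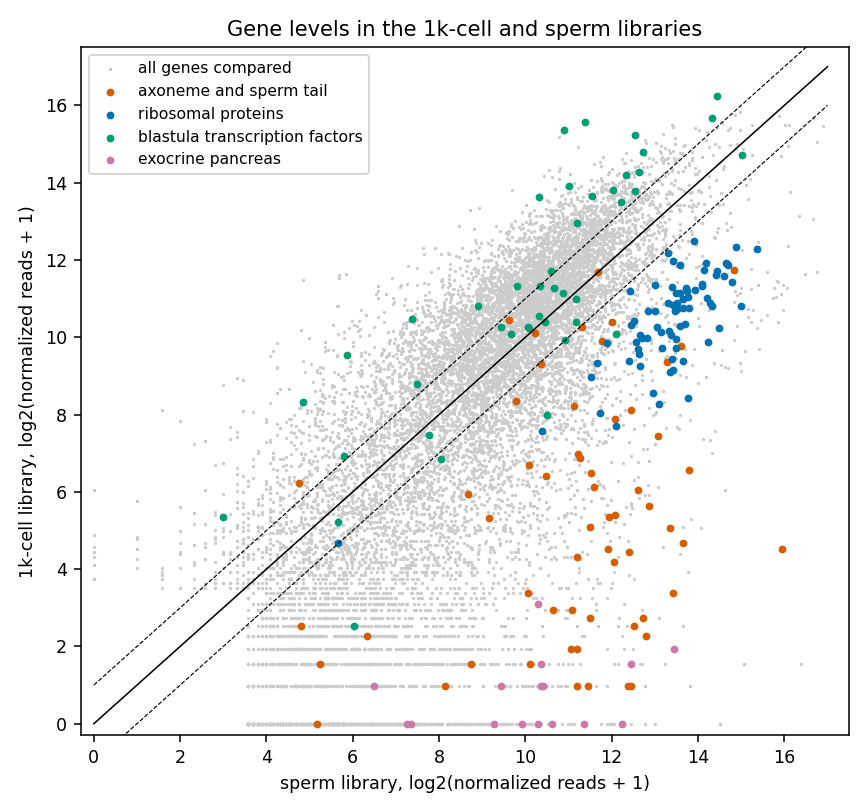
Each point is a gene compared, with log2(normalized reads + 1) in the sperm library on the x axis and in the blastula library on the y axis, 1 library each; the solid line marks equality and the dashed lines a 2-fold difference. Axoneme genes (median log2 ratio -6.47) and exocrine pancreas markers (-9.41) spread down to the floor of the blastula library, ribosomal protein genes form a compact cloud below the line (-2.80), and most blastula transcription factor genes lie above it (1.25).

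The genes higher in blastula were nearly all present in the egg library too. Of the 3186, 94.9% had at least 10 normalized reads in egg, against 76.8% of all genes compared and 53.1% of the lower genes. The 2 sets also differed in level, with blastula medians of 2147 and 14.3, and the part of level in these shares was not tested. The egg library was the smallest, at 9241829 recovered reads with 1 read worth 1.98, so a value below 10 in egg does not show absence. At the germ ring stage 98.4% of the higher genes and 61.4% of the lower genes reached 10. The remaining 162 higher genes were below 10 in egg. Examples chosen after their values were seen were irx7, an Iroquois homeobox gene with 44.7 in sperm, 3.97 in egg, 221 in blastula and 1698 at germ ring, and foxd5, a forkhead gene at 0, 0, 20.9 and 4689. The nucleolar gene heatr1 ran from 148 in sperm and 1.98 in egg to 547 in blastula and 353 at germ ring.

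Genes of the sperm tail gave the lowest median of the lists outside other-cell markers. Of 58 measured members, 54 were lower and 1 higher, the median log2 ratio was -6.47, and 40 were at least 16-fold lower. Of all genes compared, 40.0% were lower and 14.4% at least 16-fold lower. The alpha tubulin gene tuba7l was at 62612 normalized reads in sperm, 0 in egg, 21.9 in blastula and 34.7 at germ ring, a 2863-fold difference between sperm and blastula (1908 to 4517). The outer dynein arm heavy chain dnah9 was at 7118, 0, 3.80 and 4.52. The dynein docking factor ccdc151 (now odad3) and the central pair protein spag6 stood at 5557 and 5360 in sperm with 1 read each in blastula. Their ratios were 5845 (1049 to 230909) and 5637 (1011 to 222696). Chosen after their values were seen, the radial spoke gene rsph9 was at 5838 and 4.75 and the tektin gene tekt1 (listed as zgc:101797) at 10904 and 9.51. All 6 of these genes were under 22 normalized reads in blastula. All except tuba7l were under 10 there and entered through sperm alone, as did every other member under 10 in blastula. That all but fixed their direction.

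Regulators of that program were not all lower. The forkhead gene foxj1a, which switches on motile cilia genes, was at 6816 normalized reads in sperm and 5.70 in blastula, 1195-fold lower (549 to 3257). Chosen after their values were seen, its relative foxj1b was at 1073 and 9.51 and the RFX factor rfx3 at 12389 and 871. The RFX factor rfx2, which acts on the same genes, was level, at 3292 and 3309. Its relative rfx4 was the 1 higher member, at 25.8 and 74.2. The other members inside the 2-fold lines were the dynein light chain dnal4a, at 1188 and 1107, and odf2b (listed as si:ch211-251j10.4), a centriole and tail fibre protein, at 791 and 1395.

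Intraflagellar transport, the cargo system that builds any cilium, differed less than the motile apparatus. Of 36 measured genes 28 were lower and 2 higher, with a median of -1.87, but only 2 of the 28 were at least 16-fold lower, and 35 of 38 found still reached 10 in blastula. The transport complex gene ift81 went from 5981 in sperm to 431, and the retrograde motor gene dync2h1 (listed as wu:fj04e09) from 585 to 21.9. The anterograde motor kif3b lay within 2-fold, at 4013 and 5880. The chaperonin-like Bardet-Biedl genes stood apart from each other, with mkks at 296 and 823 (2.78-fold higher, 2.44 to 3.18) and bbs10 at 708 and 31.4 (22.6-fold lower, 15.9 to 33.1).

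Meiotic genes were lower in 13 of 17, with a median of -4.55 and 9 of them at least 16-fold lower. Over all genes compared these shares were 40.0% and 14.4%. The strand exchange recombinase dmc1 was at 914 normalized reads in sperm and at 0 in egg, blastula and germ ring, at least 320-fold lower in blastula. The chromosome axis gene hormad1 stood at 5239 and 4.75, and the synaptonemal filament gene sycp1 at 7164 and 137. Members under 10 in blastula, among them dmc1 and hormad1, entered through sperm alone, which all but fixed their direction. The heat shock factor gene hsf5, which zebrafish males need for spermatogenesis, was at 14026 and 14.3, 984-fold lower (596 to 1758). The recombination mediator brca2 was higher, at 3676 and 7593. The other higher member, cyp26a1, degrades retinoic acid and stood at 420 and 1677.

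Germ plasm and piRNA genes differed less than the meiotic genes. Of 22 measured, none was at least 2-fold higher, 8 were lower and 14 lay between, and all 22 reached 10 in each of the 4 libraries. Of all genes compared 25.6% were higher and 40.0% lower, so the lower share was close to that of all genes. The germ cell helicase vasa (now ddx4) was at 6751 in sperm and 5450 in blastula. The primordial germ cell factor dnd (dnd1) was at 2432 and 2174, and nanos3 at 1794 and 2339. The 2 Piwi genes parted: piwil1, which carries piRNAs in the germ line, stood at 11148 and 1292 (8.63-fold lower, 8.16 to 9.13), while piwil2 was level at 2570 and 2483. Among Tudor genes, tdrd7 was at 25827 and 7988, tdrd1 at 4674 and 4971, and tdrd6, which organizes the germ plasm, at 2796 and 5588. The last lay on the 2-fold line (1.91 to 2.09) and passed it under median-of-ratios scaling. The translation activator dazl was 2.95-fold lower (2.77 to 3.13), at 3889 and 1321.

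Oocyte and egg genes were mostly lower in blastula than in the sperm library, 20 of 33 against 2 higher, with a median of -1.67. The egg coat genes zp2.2, zp2.5 and zp2.6, which are close copies and may share reads, were at 20360, 19976 and 21552 in sperm and 128, 162 and 189 in blastula. In egg they were at 61.5, 173 and 204. The maternal effect gene zar1 was at 36298 in sperm, 322 in egg and 1696 in blastula. The deadenylation adaptor btg4 had its highest value in egg, at 33359, and stood at 7192 in sperm and 6453 in blastula. The list thus holds genes whose highest library is sperm and genes whose highest library is egg.

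Of 25 histone and chaperone genes 5 were higher and 7 lower, against 25.6% and 40.0% of all genes, with a median of -0.53. The linker histone gene h1fx was at 4880 normalized reads in sperm, 191 in egg, 106 in blastula and 133 at germ ring, 46.2-fold lower in blastula than in sperm (38.3 to 56.3). The damage-response histone h2afx stood at 2120 and 89.4 and the macroH2A gene h2afy2 at 909 and 20.9. The higher members were mainly histone chaperones. Among them asf1ba, which hands over H3 and H4, was at 53.6 and 271. The gene daxx, which handles H3.3, was at 3197 and 10476, and anp32e, which removes H2A.Z, at 6547 and 23098. Further chaperone genes of the list lay within 2-fold. Chosen after their values were seen, asf1bb was at 1853 and 1005, nap1l1 at 7774 and 4584 and nasp at 27527 and 31985.

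DNA methylation genes went both ways, with 9 of 24 higher and 9 lower, against 25.6% and 40.0% of all genes. Their median was -0.03, or 0.10 under median-of-ratios scaling and 0.88 with a floor of 10 in both libraries. Among 7 DNA methyltransferase genes, 5 passed 2-fold upward and none downward. The maintenance enzyme dnmt1 was at 12178 normalized reads in sperm, 58757 in egg, 27780 in blastula and 4851 at germ ring. The blastula value was 2.28 times that of sperm (2.23 to 2.33). The de novo enzymes dnmt4, dnmt7 and dnmt3 (all now dnmt3b-type symbols) were at 523, 705 and 916 in sperm and 3986, 4629 and 4126 in blastula. Their ratios were 7.63 (6.97 to 8.37), 6.56 (6.06 to 7.11) and 4.50 (4.19 to 4.84). The fourth higher de novo gene, dnmt8 (dnmt3aa), stood at 50.7 and 166, whereas dnmt5 was at 1919 and 2163 and dnmt6 at 58.6 and 49.4.

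The methyl-binding gene mbd2, chosen after its values were seen, was lower at 740 and 258. Several genes linked to demethylation and base repair had low ratios. The stress gene gadd45g was at 839 and 5.70, and apobec2a, of the cytidine deaminase family, was at 43.7 and 0. Both were under 10 in blastula and entered through sperm alone, which all but fixed their direction. The RNA methyltransferase trdmt1 was at 381 and 24.7. Chosen after their values were seen, the glycosylase tdg stood at 204 and 61.8 and gadd45bb, which was higher, at 85.4 and 227. The base repair gene ung, also chosen after its values were seen, lay within 2-fold, at 1428 and 2581. The Dnmt1 cofactor uhrf1 was listed at 0 in all 4 libraries and has no ratio.

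Polycomb and Trithorax genes had 12 of 37 higher and 7 lower, with a median of 0.47. The Polycomb reader cbx2 stood at 482 normalized reads in sperm and 10390 in blastula, 21.6-fold higher (19.7 to 23.7). Its relative cbx7a went the other way, from 631 to 8.56. The Polycomb complex members jarid2b and suz12a were at 48.7 and 1011 in sperm and 742 and 6467 in blastula. The H3K4 methyltransferase mll (kmt2a) was at 1676 and 10021. The Polycomb-linked DNA-binding factor yy1a was lower, at 1368 and 160.

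The transcription factors of the early blastula gave the highest median of the lists. Of 43 measured, 24 were higher, 11 of them at least 4-fold, and 5 were lower, with a median of 1.25. At least 4-fold higher were 8.90% of all genes compared. The gene pou5f1 (now pou5f3), which opens zygotic enhancers, was at 1893 in sperm, 22524 in egg, 41838 in blastula and 80736 at germ ring, 22.1-fold higher than in sperm (21.1 to 23.1). The value of sox19b was 2685 in sperm, 3674 in egg and 48352 in blastula, 18.0-fold higher (17.3 to 18.7). Its relative sox3 went from 27.8 to 321. Nanog, already at 22230 in the sperm library, was 3.51-fold higher (3.46 to 3.56).

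Several further factors shared that direction. The T-box gene eomesa, which drives endoderm genes, was at 1282 and 12691, and the Nodal cofactor foxh1 at 2340 and 7930. The entry klf4 was at 57.6 and 742, whereas klf4a, which now has the same symbol and was chosen after its values were seen, was at 65.6 and 0.951. The insulator protein gene ctcf was at 5991 in sperm, 828 in egg, 38641 in blastula and 84280 at germ ring. The TATA-binding gene tbp was 4.26-fold higher (4.10 to 4.43), while its germ line relatives tbpl1 and tbpl2 lay within 2-fold. Lower in the embryo were smad1, a BMP effector, at 64.6 and 4.75, e2f5 at 4380 and 1086, and the Myc genes mych, at 1448 and 254, and myca, at 262 and 115.

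The first-wave zygotic genes were not above sperm as a group. Of 54 measured 30 were lower and 10 higher, with a median of -2.10, or -0.64 with a floor of 10 in both libraries. The mesoderm factor tbx16 was at 13.9 in sperm, 0 in blastula and 20401 at germ ring, and the ventral repressor vox at 51.7, 71.3 and 9126. Among those above sperm, the Hairy-related gene her5 was at 5.96 and 103 (17.2-fold, 7.66 to 48.0). The organizer gene dharma was at 2.98, 3 reads, and 24.7 (8.29-fold, 2.54 to 42.8). The notochord factor flh (noto) and the gene nnr stood at 2.98 and 5.96 in sperm and 15.2 and 31.4 in blastula. The lowest ratios belonged to genes detected in the sperm library, such as the keratin krt18, at 520 and 3.80, and the factor sp5, at 330 and 2.85. Of the 61 genes found, 7 were under 10 in both libraries.

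**Figure D2:**
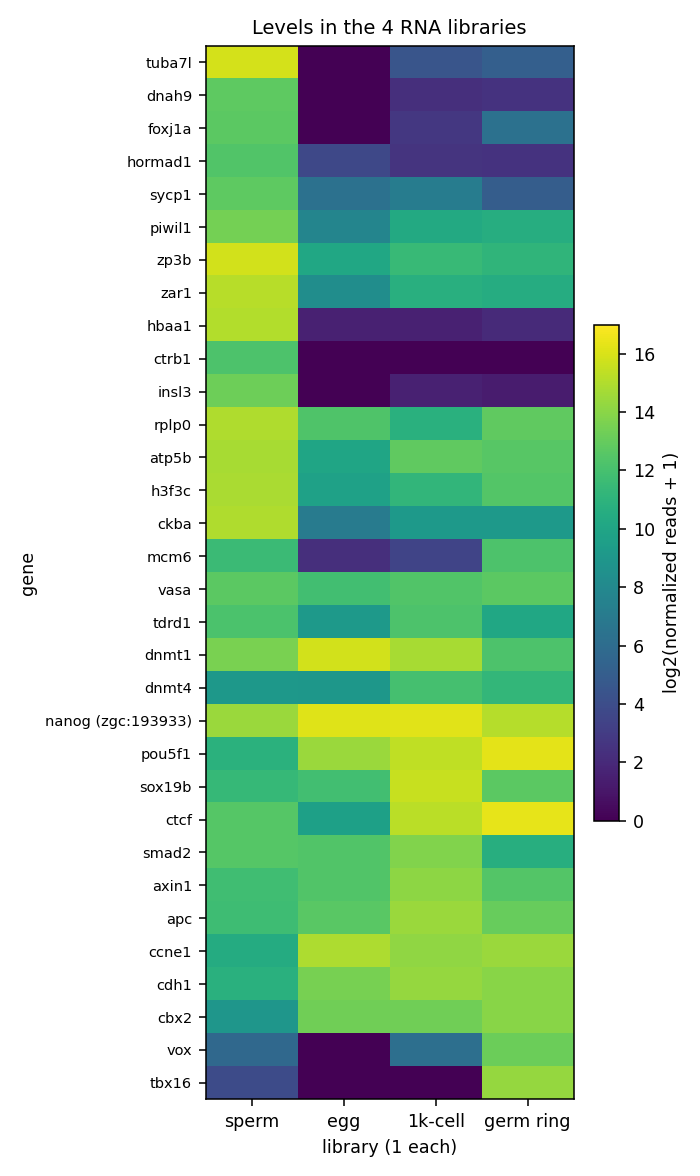
Rows are 32 genes from the lists and columns the sperm, egg, blastula and germ ring libraries, 1 each; colour gives log2(normalized reads + 1). The upper rows are brighter in sperm than in blastula, by much for some (tuba7l, 62612 and 21.9) and by little for others (atp5b, 27980 and 7450). The rows from vasa to tdrd1 are similar in both, most rows below are brighter in blastula (sox19b, 2685 and 48352), and tbx16 is bright at germ ring alone (20401).

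Cell cycle genes fell on both sides, with 19 of 62 higher and 21 lower, against 25.6% and 40.0% of all genes. Their median was 0.38. The E cyclins that open S phase parted most: ccne1 was at 1386 in sperm and 18460 in blastula (13.3-fold higher, 12.6 to 14.1), and ccne2 at 988 and 78.0 (12.7-fold lower, 10.1 to 16.1). At the germ ring stage they stood at 21973 and 9138. The mitotic cyclin ccnb2 was at 15647 and 43799 and the mitotic phosphatase gene cdc25 (cdc25b) at 6768 and 19773. The inhibitory kinase wee1 was at 3132 and 559, while its oocyte form wee2 was at 5997 and 11357. The condensin gene smc2 was higher at 4182 and 16244, and the brake gene rb1 at 727 and 3397. The checkpoint gene bub3 stood at 6808 in sperm, 22159 in egg and 136 in blastula, 50.1-fold lower (42.4 to 59.5). The mitotic kinase gene cdk1 was at 4682 and 392.

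Cohesin is the ring that holds sister chromatids, and it has subunits used in mitosis and others used in meiosis. The meiotic kleisins rec8b (listed as zgc:136888) and rad21l1 were at 1125 and 2603 in sperm and 2.85 and 323 in blastula. The mitotic kleisin rad21 was at 507 and 2115. The core subunit smc1al was at 2111 and 13900 (6.58-fold higher, 6.29 to 6.89), and its paralog smc1a at 106 and 8.56 (12.4-fold lower, 6.30 to 27.9). The gene rad21b (listed as si:ch211-246f9.1), a copy of rad21, was at 308 and 1.90. Of 14 genes 4 were higher and 4 lower, against 25.6% and 40.0% of all genes.

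Replication genes were mostly level, with 34 of 52 within 2-fold, 11 higher and 7 lower. The origin factors cdc6 (listed as zgc:174506) and orc6 were higher, at 4439 and 1885 in sperm and 18812 and 8457 in blastula, as was the nucleotide reductase gene rrm2, at 308 and 2134. The helicase subunit mcm6 was at 3029 normalized reads in sperm, 3.97 in egg, 10.5 in blastula and 4970 at germ ring, 290-fold lower in blastula (162 to 581). Its copy mcm6l, chosen after its values were seen, was at 5905, 8695, 7694 and 6201. The kinase activator dbf4 was at 6080 and 336. Telomerase, tert, was at 1492 in sperm, 0 in egg and 327 in blastula.

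Genes that handle RNA were more often higher than lower. Among 105 splicing factor genes, 52 were higher and 9 were lower, with a median of 0.99, the second highest of the lists. The spliceosome helicase dhx38 was at 780 and 4973 (6.38-fold higher, 5.92 to 6.88), the polypyrimidine tract readers u2af2a at 1314 and 7033 and ptbp1b at 1472 and 6671, and prpf4 at 198 and 980. Only 4 members were at least 4-fold higher, and 44 lay within 2-fold. The tissue-type splicing regulator mbnl2 was lower, at 1793 and 66.6. The epithelial regulator esrp1 was lower too, at 49.7 and 8.56, while its paralog esrp2, chosen after its values were seen, was 3.97-fold higher (3.74 to 4.22), at 1315 and 5218. Core Sm proteins also went both ways, with snrpg (listed as zgc:103688) at 3093 and 524 and snrpd3, chosen after its values were seen, at 2955 and 6204.

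Among 51 deadenylation and decay genes, 17 were higher and 7 were lower, with a median of 0.34. The Argonaute genes eif2c3b (ago3b) and eif2c4 (ago4), which carry microRNAs, were at 350 and 2333 in sperm and 4288 and 12776 in blastula. The repressor pum2 was at 297 and 2240 and the exonuclease xrn1 at 984 and 7304 (7.42-fold higher, 6.94 to 7.93). The stabilizing factor igf2bp3 was at 1865 and 9032. The AU-element binding gene zfp36l1b was 115-fold lower (79.0 to 175), at 2955 and 25.7. Its maternal relative cth1 was among the 10 highest values of the blastula library, at 29740 in sperm and 55516.

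Ribosomal protein genes were lower as a block. Of 75 measured, 74 were lower, none was higher, the median was -2.80 and 10 were at least 16-fold lower. The least different was rps8b, at 49.7 and 24.7. The acidic stalk protein gene rplp2 was at 8806 in sperm and 311 in blastula, 28.3-fold lower (25.4 to 31.7), and rps9 at 15290 and 5720. The ubiquitin-like fusion gene faua was at 7995 and 375. The summed value of the list was 971928 normalized reads in sperm, 234749 in egg, 138882 in blastula and 272596 at germ ring. Translation factors were mixed: pabpc1b was at 8261 and 258, pabpc1a at 16084 and 19289, eif4ea at 1609 and 110, and eif4e3 at 1436 and 5337.

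**Figure D3:**
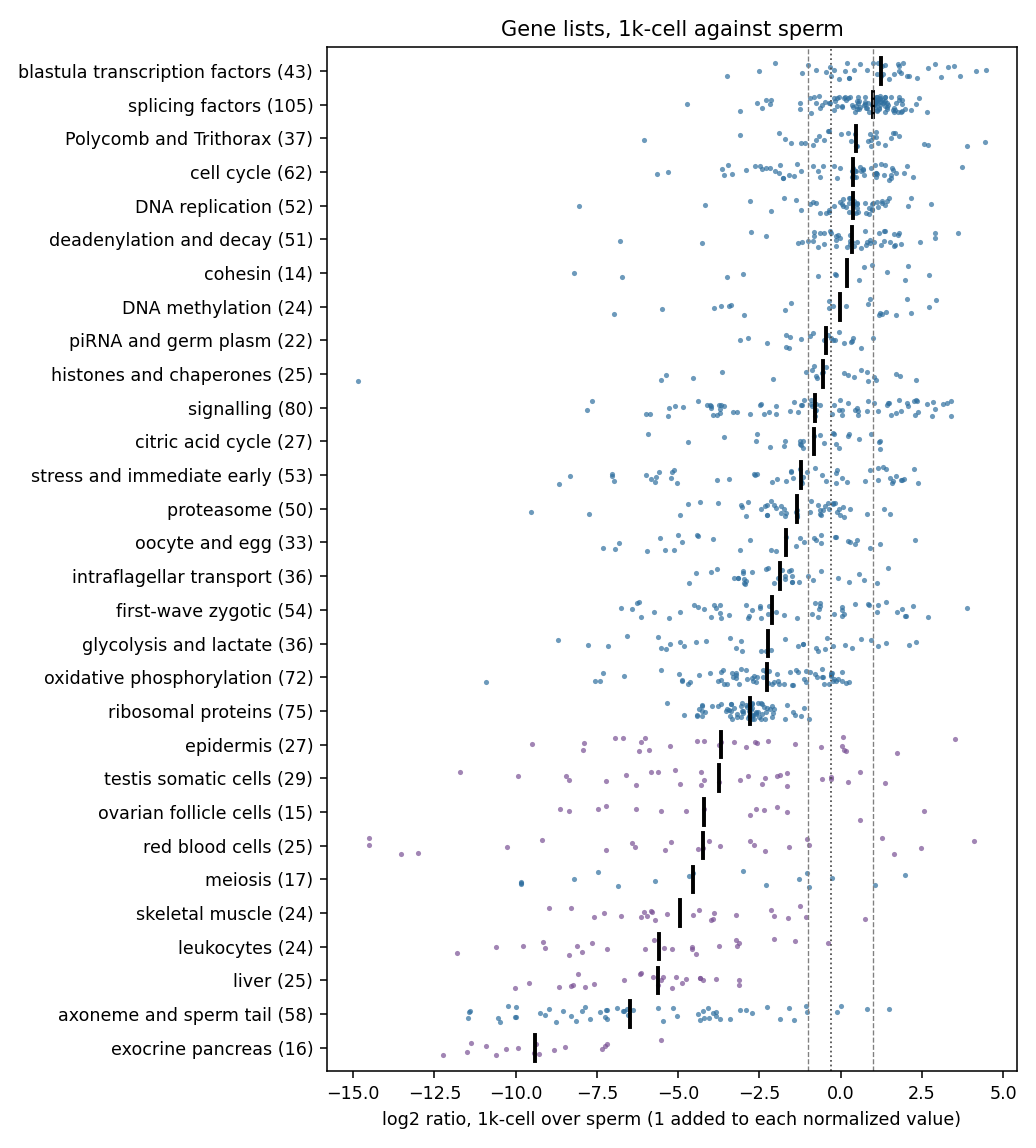
Each point is a gene, with its log2 ratio of blastula to sperm on the x axis, grouped into 30 lists with the number of measured members in brackets; blue lists are pathways and purple lists are markers of other cell types. Black bars are list medians, dashed lines mark 2-fold differences and the dotted line the median of all genes (-0.29). Medians run from -9.41 for exocrine pancreas to 1.25 for blastula transcription factors, and the ribosomal protein genes lie close together around -2.80.

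Genes of oxidative phosphorylation were mostly lower in the embryo, and those of the citric acid cycle less so. Of 72 oxidative phosphorylation genes 52 were lower and none higher, with a median of -2.26. The cytochrome oxidase gene cox5b2 was at 3799 normalized reads in sperm and 0.951 in blastula, and cox6a2 and cox6b1 were at 186 and 170 and 0. The complex I gene ndufa6 was at 2412 and 14.3, whereas ndufv1, which carries its flavin site, was level at 4890 and 5070. In the citric acid cycle list 13 of 27 were lower and 3 higher, against 40.0% and 25.6% of all genes. Its median of -0.81 lay inside the 2-fold line. The succinate dehydrogenase subunit sdhda was lower at 224 and 7.61, while its copy sdhdb was level at 1818 and 2156.

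Of 36 glycolysis and lactate genes 23 were lower and 4 higher, with a median of -2.23, or -0.76 with a floor of 10 in both libraries. The lowest was eno4 (listed as zgc:153973), an enolase of the sperm tail in mouse, at 3191 and 6.66, 479-fold lower (232 to 1193). The isomerase gpib was at 849 and 2.85. The lactate transporters went the other way: slc16a3 was at 10765 and 46162 (4.29-fold higher, 4.20 to 4.38), and slc16a1 at 495 and 2487. All 6 creatine kinase genes, which buffer ATP, were lower, led by the brain-type gene ckba at 32809 and 556.

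The proteasome list had 28 of 50 lower and 2 higher, with a median of -1.36. The immune-type subunits psmb8 and psmb10 were the lowest, at 740 and 413 in sperm and 0 and 0.951 in blastula. The 2 higher genes, psme3 and psme4b, encode nuclear activators of the proteasome and stood at 2728 and 1801 in sperm and 7835 and 4572 in blastula. In the regulatory particle, the ATPase gene psmc3 and the lid gene psmd11a lay within 2-fold, at 3828 and 2243 in sperm and 4635 and 3939 in blastula.

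Of 80 signalling genes, 24 lay above and 35 below the 2-fold lines, close to the shares of all genes compared (25.6% and 40.0%). Their median was -0.77, or 0.21 with a floor of 10 in both libraries. The genes were sorted by role after the values were seen. Of 31 ligand genes found 23 were measured, and none of these was higher and 17 were lower. Of 39 measured receptor genes 18 were higher and 14 lower. Genes under 10 in blastula, such as the ligands dld, dlc and dla and the receptor fzd2, entered through sperm alone. They could hardly be other than lower, and the part of the floor in this contrast was not tested. The Activin and Nodal receptors acvr2b and acvr1b were at 1038 and 743 in sperm and 10890 and 6610 in blastula, 10.5-fold (9.85 to 11.2) and 8.89-fold (8.25 to 9.60) higher. The Wnt co-receptor lrp5 was at 264 and 2809, and notch1a at 863 and 8280. The Delta ligands that act on Notch were lower, with dld at 579 and 1.90, dlc at 365 and 4.75 and dla at 223 and 2.85. The Frizzled receptor fzd2 was at 221 and 0. Of 14 cytoplasmic and nuclear components 6 were higher and 2 lower. Chosen after their values were seen, the Wnt scaffold genes apc and axin1 stood at 3445 and 3456 in sperm and 21912 and 17646 in blastula.

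Stress and immediate early genes were lower in 30 of 53 and higher in 13, against 40.0% and 25.6% of all genes. The higher share was thus close to that of all genes. Their median was -1.21, or -0.58 with a floor of 10 in both libraries. The lowest included genes that respond within minutes to stimulation. The factors egr1 and fos were at 401 and 1565 in sperm and 0 and 11.4 in blastula, junba at 2517 and 18.1, and the phosphatase dusp2 at 319 and 0. Other early response genes were higher, such as dusp1, at 1991 and 5905, and btg2, at 9077 and 27631, both chosen after their values were seen. The unfolded protein response gene ddit3 was at 504 and 2.85. Like egr1 and dusp2, it was under 10 in blastula and entered through sperm alone, which all but fixed its direction. Higher in the embryo were mdm4, at 2169 and 8038 (3.71-fold, 3.54 to 3.89), the death protease casp8, at 557 and 2170, and the co-chaperone dnaja1l, at 536 and 2793.

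Within some gene families the copies parted. Of 19 families with at least 2 measured members, 6 held both a copy at least 2-fold higher and one at least 2-fold lower. These were the B cyclins, E cyclins, SMC1 cohesins, Cdc25 and Wee enzymes, cap-binding proteins and the Piwi and Argonaute proteins. Of all genes compared 25.6% were higher and 40.0% lower, and how often sets of unrelated genes would part was not tested. The widest range within a family was that of the alpha tubulins, from -11.42 for tuba7l to -1.04 for tuba8l, with all 8 lower. All 5 beta tubulins were lower too, for example zgc:55461 at 103774 and 8564. The actin genes actb1 and actb2 were at 83539 and 121297 in sperm and 9002 and 45021 in blastula. Close copies may share reads, since it is not stated how reads with several matches were counted.

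**Figure D4:**
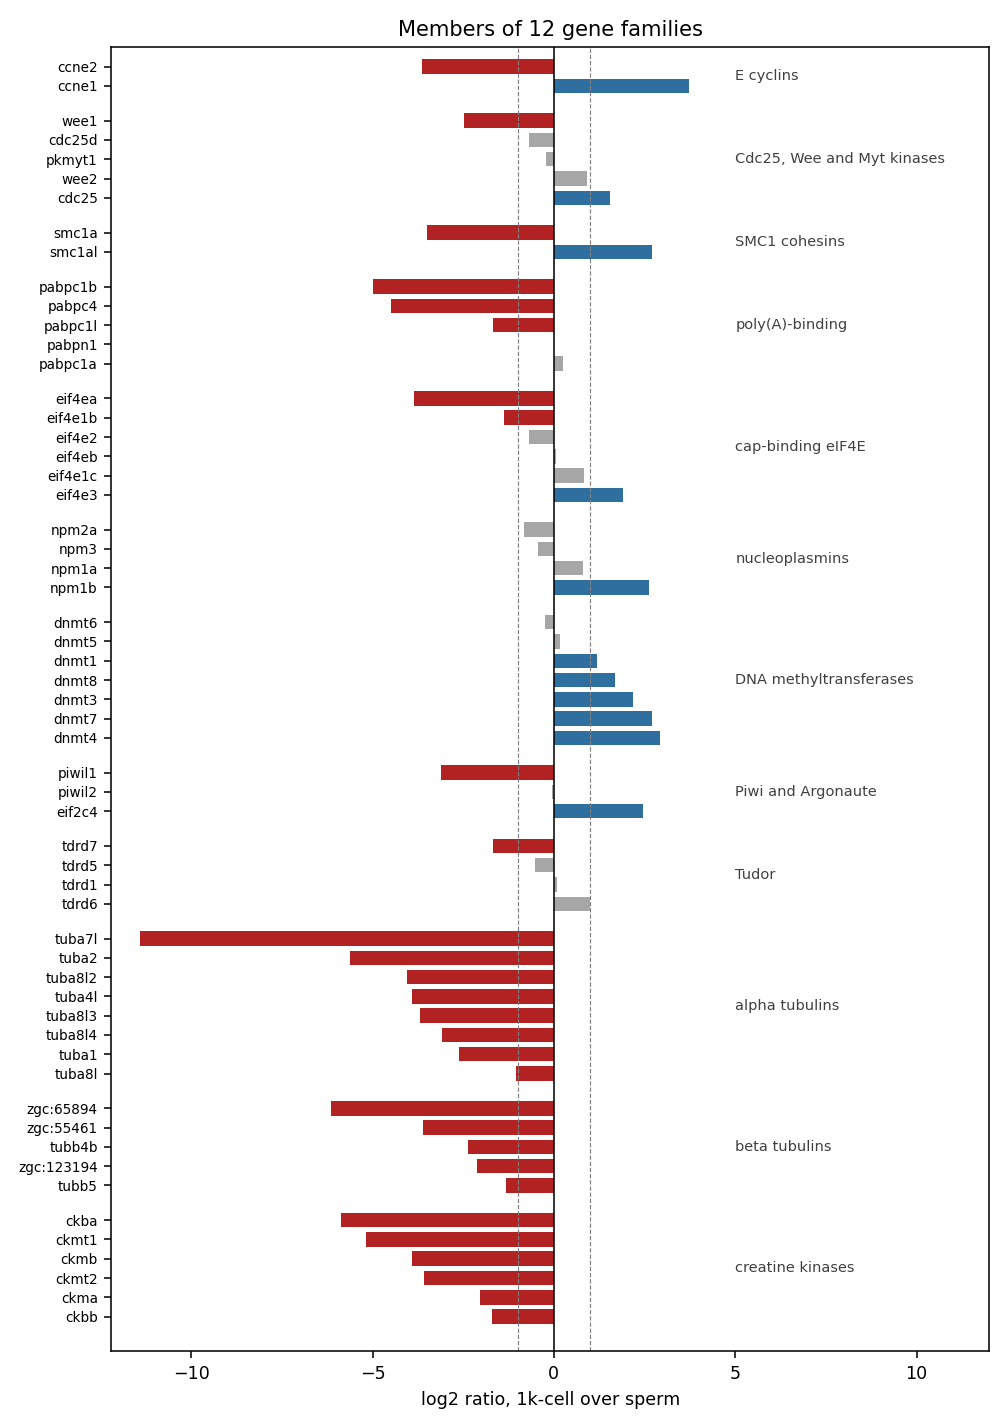
Bars give the log2 ratio of blastula to sperm for each measured member of the families named at the right; blue bars are at least 2-fold higher, red bars at least 2-fold lower, grey bars between, and dashed lines mark the 2-fold differences. The E cyclins point in opposite directions (3.73 for ccne1, -3.65 for ccne2), 5 DNA methyltransferases are blue and none is red, and every tubulin and creatine kinase is red.

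The single genes farthest from sperm on the high side belonged to no list. The protein phosphatase gene ppm1f was at 27.8 normalized reads in sperm, 458 in egg and 2881 in blastula, a log2 ratio of 6.64 and the highest in the table, with an interval of the ratio from 71.5 to 156. The Golgi stacking gene gorasp1 was at 50.7 and 3118, the homeobox gene hmbox1a at 56.6 and 3192, and pid1, a phosphotyrosine-interaction protein, at 50.7 and 2959. The RNA-binding gene igf2bp1 was at 48.7 and 1807, the Hedgehog effector gli2b at 9.93 and 473 and the actin regulator abi1b at 26.8 and 1169. The orphan nuclear receptor esrrgb rested on 2 sperm reads, at 1.99 and 277, with a ratio of 139 (38.2 to 1155), and the neuroligin nlgn4b on 3 reads, at 2.98 and 226. The opsin opn5 was at 0 and 28.5, at least 9.57-fold higher. The remaining 5 of the 15 highest were arsa, chrnb3b, kctd12b, lrit1b and erbb4a, with ratios from 33.0 to 54.8.

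On the low side the 15 extremes were 4 globin genes, the protease genes ctrb1 and try, lyz, insl3, the granule proteoglycan srgn, the pentraxin nptx2a, and 5 genes of the axoneme. The globin genes ba1 and ba2 carried the same value in each library, 23288 in sperm and 0 in blastula, and cannot be told apart. The axonemal 5 were tuba7l, ccdc151 and spag6, given above, the radial spoke chaperone dnajb13, at 4186 and 0, and the microtubule inner protein ribc1, at 4103 and 0. Serglycin, srgn, was at 14461 and 0.951. Clone-type names were left out of these extremes. Those among them with a current name, chosen after their values were seen, included the ciliary genes ribc2 (3962 and 0) and cfap77 (3430 and 0), and on the high side the collagen gene col19a1 (0 and 65.6) and the TEAD factor tead3b (138 and 2634).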

How the data were processed

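Each deposited RNA table gives 1 normalized signal value per gene name, which the authors obtained by TMM scaling of read counts, per the file headers. The submitters' processing notes name BWA 0.6.1-r104, edgeR and Zv9 (danRer7). For the counting tool, annotation, strand setting and filters, nothing is given in the sources used here. Every deposited value was a whole multiple of 1 step per library (within 0.01 reads), which gave the recovered reads used for intervals.

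Of 15328 entries for 14244 names, the entry with the highest sum was used for the 718 repeated names. Current symbols were found for 13657 names and not for 587, and 547 names were at 0 in all 4 libraries. Among the genes compared, 458 shared all 4 values with another name.

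Log2 ratios used a pseudocount of 1, a floor of 10 in either library and a 2-fold cutoff. Samples were grouped by their titles. The members and the 30 lists (22 pathways, 8 sets of other-cell markers) were chosen with earlier results of these data known, and 3 list entries were corrected after the files were read. Genes were named by a rule: the 15 highest and 15 lowest ratios, the 4 highest and 4 lowest of each list, all members of 23 families, the 10 highest values per library, and a fixed set of regulators and markers. Some genes that the rule selects are not reported here. Others are given as chosen after their values were seen. Names without a current symbol were used as listed.

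Alternatives were equal-total, upper-quartile and median-of-ratios scaling, pseudocounts of 0.1 and 5, no floor, floors of 50 or of 10 in both, a 4-fold cutoff and summed entries. The arithmetic was tested on simulated data. Python 3.11.15, numpy 2.4.6, scipy 1.17.1, pandas 2.3.3 and matplotlib 3.10.9 were used. No sequence is printed, as none was used here.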

Additional observations from a re-analysis of the deposited data

How the results depend on the processing

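Under the alternatives 254 recomputed list medians kept their direction and their side of the 2-fold line. The all-gene median of -0.29 was -0.15 with median-of-ratios, -0.57 with upper-quartile and -0.43 with equal-total scaling, -0.47 with no floor, -0.012 with a floor of 50 and 0.23 with a floor of 10 in both libraries. That last floor left 2680 lower genes, and a 4-fold cutoff left 1108 higher genes. The floor of 10 in both libraries also set the medians of first-wave genes to -0.64, glycolysis to -0.76, stress genes to -0.58, signalling to 0.21 and follicle markers to 0.59, because it removes genes near 0 in one library. The DNA methylation median was 0.10 with median-of-ratios scaling, 0.85 with a floor of 50 and 0.88 with a floor of 10 in both. Splicing factors had 1.13 with median-of-ratios scaling and 1.01 under each of those floors. With upper-quartile scaling blastula factors had 0.97, cohesin -0.067, the citric acid cycle -1.08 and signalling -1.05. Ratios of named genes were recomputed only under the other scalings and pseudocounts. They came out past the 2-fold line in 20 cases where they had been inside it. In 27 cases they came out inside it where they had been past it. The largest scaling shift was -0.28 on the log2 scale, and a pseudocount cannot change a sign. A gene past 2-fold thus could not change sign, and the stability of direction was not tested.

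No paired analysis was possible because each group has 1 library. No replicate was left out for the same reason, and the spread between animals or clutches is not known. Library, collection and stage cannot be told apart. Genes with 1 to 3 reads in one library have wide intervals.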

Other observations

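Groups of genes with a shared name stem, chosen after their values were seen, held further differences between the 1k-cell and sperm libraries. Homeobox genes of the Hox clusters, which set position along the body axis later in development, were lower in 27 of 37 measured and higher in 5. Only 13 of these 37 reached 10 at the 1k-cell stage. The rest entered through sperm alone, which all but fixes their direction, and the same limit holds for the groups that follow. The group held hoxa1a at 381 normalized reads in sperm and 0 at the 1k-cell stage, and hoxd9a at 8.94 and 186 (20.8-fold higher, 10.8 to 46.3). Claudins, the seal proteins of tight junctions, were lower in 18 of 24, and 10 of the 24 reached 10 at the 1k-cell stage. The exceptions included cldn7b at 2931 and 17239 and cldn12 at 2120 and 4489, the only 2 that were at least 2-fold higher. Cytochrome P450 genes were lower in 34 of 52, and 24 of the 52 reached 10 at the 1k-cell stage. The steroid hydroxylase gene cyp11c1 was at 346 and 0. Of 6 tubulin tyrosine ligase-like genes, which modify axonemal tubulin, 5 were lower, led by ttll2 at 1368 and 1.90. Protocadherins were lower in 40 of 59 and higher in 17, and 39 of the 59 reached 10 at the 1k-cell stage. Clustered copies such as pcdh2ab2 and pcdh2ab9 carried the same values and may share reads.

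On the other side were several families of trafficking and regulatory genes. Palmitoyltransferases of the zdhhc family, which attach lipid to proteins, were higher in 9 of 13, with zdhhc18 at 1330 and 7656. Sorting nexins, which steer endosomal cargo, were higher in 11 of 22 and lower in 2. Genes named znf were higher in 20 of 37 and lower in 4, among them znf609 at 370 and 5103 (13.8-fold higher, 12.4 to 15.4). In the mitogen-activated kinase group 13 of 26 were higher and 5 lower, with the stress kinase map2k7 at 69.5 and 1379 and mapk14b at 95.4 and 1480, against mapk15 at 5520 and 41.8 and mapk11 at 181 and 0. For the whole table these shares were 25.6% higher and 40.0% lower.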
